A study of Mus musculus with 6 samples.

Results

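A set of 10 long noncoding transcripts was followed in the livers of Fah-deficient mice, 7 of them snoRNA host transcripts (Snhg1, Snhg3, Snhg5, Snhg6, Snhg8, Snhg12 and Gas5) and 3 nuclear or imprinted long noncoding RNAs (Neat1, Malat1 and Meg3). A gene counted as measured where the platform annotation gave it a probe set with 1 gene symbol, and the probe set with the highest mean log2 signal over the 6 arrays stood for it. By this rule 8 of the 10 were measured, out of 22180 genes with such a probe set. Gas5 and Snhg8 were not measured, since their probe sets carry a second symbol each. All mice were male FAH5981SB animals on the C57Bl/6J background, whose Fah gene has a point mutation at the end of an exon, so the controls lack the enzyme too, and no wild-type liver was analysed here. In the continuous group (3 arrays) the mice drank NTBC (nitisinone) at 8 mg/l. In the withdrawal group (3 arrays) the drug was taken away at an age of 11 weeks, 7 days before sampling, and livers of both groups came from mice of 12 weeks. All mice ate a chow low in tyrosine and phenylalanine, and the drinking water is described with 3% dextrose.

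Fah encodes fumarylacetoacetate hydrolase, the last enzyme of tyrosine breakdown, and NTBC blocks the pathway upstream of it, so that stopping the drug lets reactive intermediates form in hepatocytes. Small nucleolar RNAs (snoRNAs) guide methylation (C/D class, Snord) or pseudouridylation (H/ACA class, Snora) of ribosomal RNA, and most are cut out of the introns of a host transcript. The spliced hosts of the Snhg type often start with a run of pyrimidines, as messenger RNAs of ribosomal proteins do, and many are short-lived because translation exposes them to nonsense-mediated decay. Neat1 is the scaffold of paraspeckles, Malat1 resides in nuclear speckles, and Meg3 is expressed from the maternal copy of the Dlk1-Dio3 imprinted region.

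The start regions of the hosts are shown because this class of transcript is known for its pyrimidine run, and Snhg3 is shown over the whole stretch because it was the member that rose. The sequences are from RefSeq on GRCm38.p6, 5′ to 3′ on the strand of the gene. The table covers 250 bases before to 50 after each annotated start and held 8 of the 10 genes. Capitals mark the longest run of C or T that reaches within 5 bases of the annotated start, and the letters TATAAA on either strand. The line for Snhg3 spans 300 bases and the others run from position -40 to position 50, where position 1 is the first transcribed base.
Snhg3, chr4:132353637-132353936, minus strand: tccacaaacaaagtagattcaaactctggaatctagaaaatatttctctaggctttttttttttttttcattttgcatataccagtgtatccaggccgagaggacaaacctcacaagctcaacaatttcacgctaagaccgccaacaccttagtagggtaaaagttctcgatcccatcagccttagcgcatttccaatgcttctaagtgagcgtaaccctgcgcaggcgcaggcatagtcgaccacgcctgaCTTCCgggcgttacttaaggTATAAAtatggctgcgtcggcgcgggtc
Snhg1, chr19:8723447-8723536, plus strand: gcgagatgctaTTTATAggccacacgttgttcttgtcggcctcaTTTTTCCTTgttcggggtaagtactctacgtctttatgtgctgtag
Snhg5, chr9:88522848-88522937, minus strand: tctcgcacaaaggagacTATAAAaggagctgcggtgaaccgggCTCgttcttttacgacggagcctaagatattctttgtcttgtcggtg
Snhg8, chr3:123508287-123508376, minus strand: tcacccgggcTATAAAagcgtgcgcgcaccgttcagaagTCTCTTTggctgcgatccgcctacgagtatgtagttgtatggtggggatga
Snhg12, chr4:132308638-132308727, plus strand: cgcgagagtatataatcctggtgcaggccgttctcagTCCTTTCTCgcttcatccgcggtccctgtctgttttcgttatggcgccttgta
Gas5, chr1:161035126-161035215, plus strand: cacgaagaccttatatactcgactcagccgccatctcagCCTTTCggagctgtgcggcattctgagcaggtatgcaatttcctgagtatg
The run was 9 bases long in Snhg1 and in Snhg12, 7 in Snhg8, 5 in Snhg3 and 3 in Snhg5. Members that are not snoRNA hosts had runs of similar length to the shorter of these: 5 at the first start of Meg3, 1 at its second and 4 in Malat1 (not shown). Gas5 has 2 annotated starts in the table, with a run of 6 at the second, which is shown, and of 3 at the first. The runs shown all reached past position 1. The runs of Meg3 (-5 to -1 and at -5), Malat1 (-8 to -5) and the first Gas5 start (-5 to -3) lay wholly before it. Among all 32851 promoters of the table, 32.9% had a run of at least 5. TATAAA lay from position -23 in Snhg5, from position -30 in Snhg8 and from position 23, downstream of the annotated start, in Snhg3. It lay from position -29 on the opposite strand in Snhg1 and from position -25 in Meg3 (not shown), and it occurs on either strand in 13.6% of all promoters. The core letters of the antioxidant response element bound by NRF2 (TGACNNNGC, both strands, in 12.4% of all promoters) occurred in Snhg8 from positions -222 and -111 and in no other member of the table. The E-box letters (CACGTG, the same on both strands, in 7.15% of all promoters) occurred in none of the 8. A match is a description of these letters and no evidence of binding.

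Signals below are log2 of the deposited intensity, and a change is the mean of the withdrawal group minus that of the continuous group, tested with limma over all 34472 probe sets and adjusted by the Benjamini-Hochberg method. After withdrawal Snhg3 was 1.69-fold higher, and it was the 1 of 8 measured transcripts that passed an adjusted p of 0.05. None of the 8 was called lower by limma, and at an unadjusted p under 0.05 there were 2 higher (Snhg3 and Snhg6) and 1 lower (Neat1). Over all probe sets 6.21% were called higher and 3.20% lower (9.40% in all), so 1 call among 8 is near the background. At an unadjusted limma p under 0.05, 4267 of all 34472 probe sets were higher and 3851 lower. The median change of the 8 was -0.02, against -0.08 over all probe sets. In bulk liver RNA, fewer cells of a type and less RNA per cell cannot be told apart.

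Snhg3 is the host of the H/ACA snoRNAs Snora73a and Snora73b, which are known for a part in cutting the precursor of the small-subunit ribosomal RNA. It had log2 signals of 6.21, 6.04 and 6.40 on continuous replicates 1 to 3 and of 7.24, 6.99 and 6.70 on withdrawal replicates 1 to 3. All withdrawal arrays lay above all continuous arrays. The change was 0.76 (SE 0.18, 95% interval 0.36 to 1.16, limma adjusted p = 0.0246). The exact two-sided permutation test gave p = 0.1, the smallest that 3 against 3 arrays allow. Leaving out continuous replicate 2 (change 0.67, limma adjusted p = 0.0907), withdrawal replicate 1 (0.63, 0.132) or withdrawal replicate 2 (0.75, 0.0878) ended the call.

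Snhg6, which hosts the C/D snoRNA Snord87, had 8.48, 7.72 and 8.18 with NTBC and 8.85, 8.66 and 8.34 without it. The lowest withdrawal array lay below the highest continuous array, so the groups overlapped. Its change of 0.49 (SE 0.21) did not pass (limma adjusted p = 0.201). Snhg1, host of a cluster of C/D snoRNAs that includes Snord22, ran from 6.25 to 7.12 with NTBC and from 6.57 to 7.17 without it. These groups overlapped over most of their range, and the change was 0.28 (SE 0.24, limma adjusted p = 0.526).

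Snhg5, host of the Snord50 snoRNAs, had 6.08, 5.32 and 5.66 with NTBC and 5.73, 5.47 and 5.47 after withdrawal. The withdrawal values fell inside the continuous range, with a change of -0.13 (95% interval -0.58 to 0.32). Snhg12, which hosts 3 H/ACA snoRNAs and the C/D snoRNA Snord99, had 6.24, 5.64 and 5.77 against 5.67, 5.98 and 5.70. Here too the withdrawal arrays lay inside the continuous range, and the change was -0.10 (95% interval -0.52 to 0.32). Intervals of this width do not show that the 2 hosts stayed level.

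Neat1 had the most negative change of the 8. Its signals were 10.97, 10.11 and 10.01 on the continuous arrays and 9.84, 9.87 and 9.46 on the withdrawal arrays. The groups did not overlap, which was also so for Snhg3 and for 27.6% of all probe sets, and continuous replicate 1 stood above the other 5 arrays. The change of -0.64 (SE 0.25, 95% interval -1.19 to -0.09) did not pass (limma adjusted p = 0.149), and without continuous replicate 1 it was -0.34. Malat1 had 12.15, 11.73 and 11.65 with NTBC and 11.74, 11.84 and 11.76 without it. Continuous replicate 1 was again the highest array, the withdrawal arrays lay within the continuous range, and the change was -0.06 (95% interval -0.44 to 0.31). A separate Malat1 probe set gave -0.16 (SE 0.18). Of the 20 nearest probe sets by identifier with a strand in RefSeq, 18 belong to genes on the opposite strand of the chromosome of Malat1, whereas for the probe set used here all 20 belong to its own strand.

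Meg3 was measured by a dim probe set, at 5.15, 4.99 and 5.19 with NTBC and 5.22, 5.09 and 5.10 after withdrawal, below the median log2 signal of each array (5.21 to 5.44). The 2 groups overlapped and the change was 0.03 (SE 0.14, 95% interval -0.29 to 0.34). Of its 20 nearest probe sets by identifier, 17 belong to genes on the opposite strand of the chromosome of Meg3 and 2 to its own strand. For the hosts Snhg1, Snhg3, Snhg5 and Snhg12 between 19 and 20 of 20 belonged to the strand of the host. No source used here gives the strand that the probes read, and whether the value is that of the Meg3 transcript was not tested. A probe set that carries a second symbol beside Meg3 (Mir770) gave a change of -1.10 (limma adjusted p = 0.00902) and names no gene here. The plot of signals by array shows the spread behind each of these values.

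**Figure D1:**
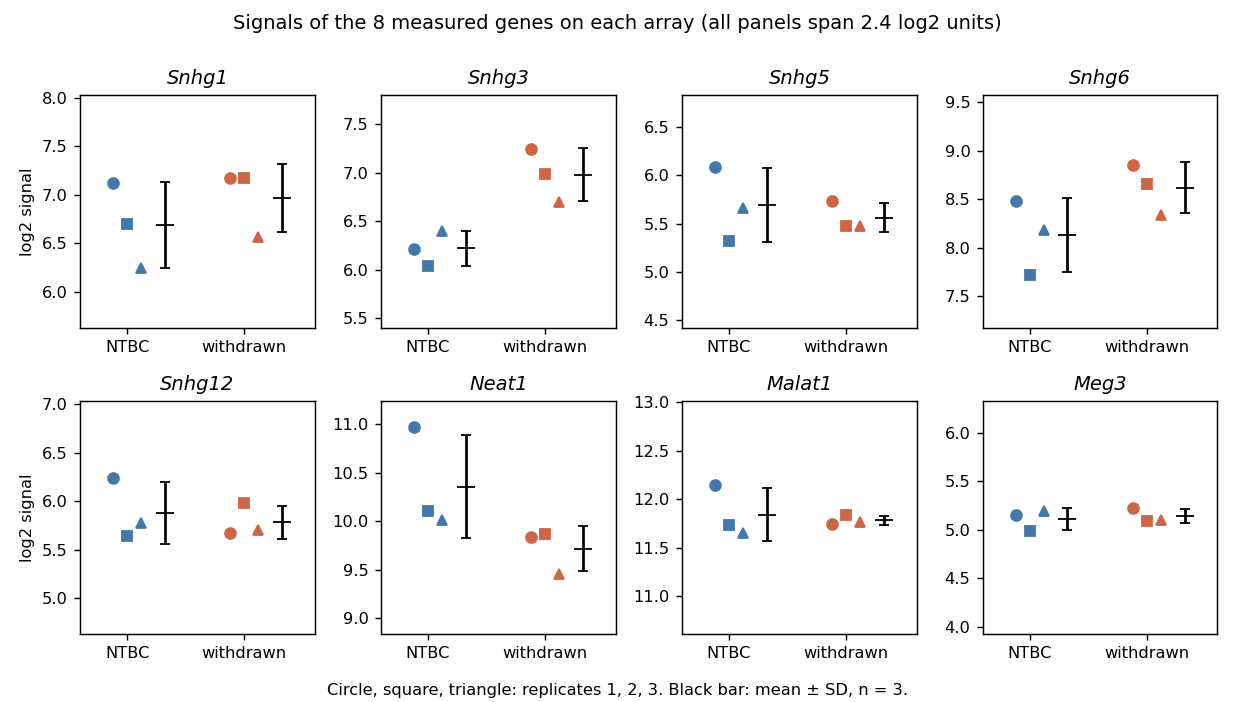
Log2 signal (y axis) of the 8 measured transcripts on the 3 continuous NTBC arrays (blue) and the 3 withdrawal arrays (orange), with the mean ± SD of each group in black. The groups are apart for Snhg3 (6.04 to 6.40 against 6.70 to 7.24) and Neat1 (10.01 to 10.97 against 9.46 to 9.87) and overlap for the other 6.

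The snoRNAs encoded within the host genes were in part lower after withdrawal. Of 28 listed snoRNAs of the 7 hosts, 9 were measured by a probe set of their own, and all 9 lie within the gene of their host in RefSeq. By limma 3 fell and none rose (7 lower and 0 higher at an unadjusted p under 0.05), with a median change of -0.62. Over all probe sets 3.20% were called lower and the median change was -0.08. At an unadjusted limma p under 0.05, 3851 of all 34472 probe sets were lower and 4267 higher. Snora73b had 10.54, 11.54 and 10.75 on the continuous arrays and 9.42, 9.88 and 9.71 on the withdrawal arrays. Snora73a had 10.32, 11.23 and 10.34 against 9.23, 9.62 and 9.45. For both, every withdrawal array lay below every continuous array, and continuous replicate 2 was the highest. The changes were -1.27 (SE 0.25, limma adjusted p = 0.00997) for Snora73b and -1.20 (SE 0.24, limma adjusted p = 0.0118) for Snora73a. The 2 are close relatives whose probes may take up each other's RNA, so they may not be independent. The 9 measured snoRNAs are 56 to 205 bases long. Whether their probe sets also take up unspliced host RNA, or vary with the recovery of short RNA, was not tested.

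The third that fell was Snora61, one of 4 snoRNAs of Snhg12, with 8.36, 9.29 and 8.48 against 7.67, 7.78 and 7.70 (change -0.99, SE 0.23, limma adjusted p = 0.0221). Its 2 H/ACA neighbours in the same host gave -0.60 (Snora16a, limma adjusted p = 0.0623) and -0.75 (Snora44, 0.0699), and the C/D snoRNA Snord99 gave 0.10 (0.781). Snord22 of Snhg1 had a change of -0.62 (limma adjusted p = 0.054), Snord87 of Snhg6 of -0.50 (0.132) and Snord47 of Gas5 of -0.29 (0.538). None of these passed. The count of lower snoRNAs was 6 with limma's trend and robust options and 6 in a fit of single-symbol probe sets alone, where Snord22 (limma adjusted p = 0.014 and 0.0378), Snora16a (0.0218 and 0.0442) and Snora44 (0.0363 and 0.0478) passed as well, and 5 without dim probe sets, where Snora44 did not. Without withdrawal replicate 1 no snoRNA of the hosts passed (adjusted p = 0.059 for Snora73a, 0.0512 for Snora73b and 0.0865 for Snora61). The count was 2 without withdrawal replicate 2 and 2 without withdrawal replicate 3, each time Snora73a and Snora73b.

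The difference between the change of a snoRNA and that of its host was compared over the 8 pairs with a measured host. It was negative in 7 of the 8. For the pairs with Snhg3 the difference was -1.96 for Snora73a and -2.03 for Snora73b, and the 3 withdrawal arrays lay apart from the 3 continuous arrays in both (exact permutation p = 0.1, and 0.133 adjusted over the 8 pairs). The difference was -0.99 for Snord87 against Snhg6, where the arrays were apart as well, and -0.90 for Snord22 against Snhg1, where they overlapped. The 4 pairs with Snhg12 ran from -0.89 for Snora61 to 0.20 for Snord99. The arrays were apart for Snora61, Snora44 (-0.65) and Snord99 and overlapped for Snora16a (-0.50). Snord99, the positive pair, was thus apart at the same exact permutation p of 0.1 (0.133 adjusted) as the pairs with Snhg3. In all, 6 of the 8 pairs were apart. Among all single probe sets the groups did not overlap in 27.6%. No such share was computed for differences between 2 probe sets, so the count of pairs has no background here. The pairs of one host share that host's values, and the pairs were examined after their values were seen. Over all 73 genes with a snoRNA symbol (Snora or Snord) 26 were called lower and 1 higher, with a median change of -0.51. The change was below 0 in 64 of the 73, so a difference to any host with a change near 0 would mostly be negative. Whether a snoRNA follows its own host was not tested. Of the H/ACA class 15 of 26 were lower, with a median of -0.86, and of the C/D class 11 of 47, with a median of -0.44.

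**Figure D2:**
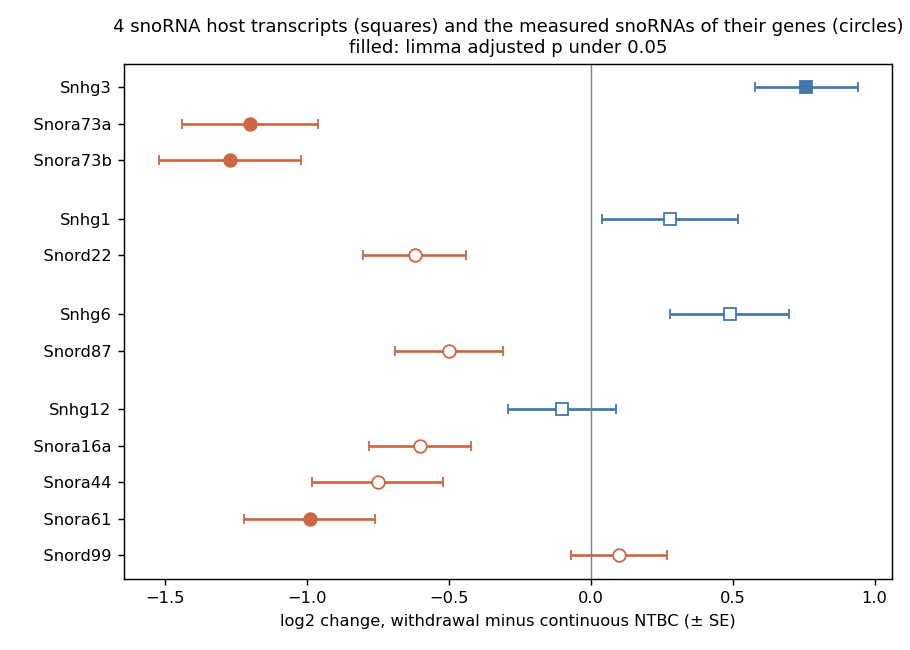
Log2 change, withdrawal minus continuous NTBC, with its SE (x axis) for 4 host transcripts (blue squares) and the measured snoRNAs of each (orange circles, listed under their host), filled where the limma adjusted p is under 0.05. Snhg3 lies at 0.76 while Snora73a and Snora73b lie at -1.20 and -1.27, and Snord99 is the snoRNA to the right of its host.

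Other hosts were called in both directions. Among the noncoding and protein-coding hosts below, those called lower, Snhg17 and Nop56, each had another probe set with a change above 0. Over all probe sets 6.21% were called higher and 3.20% lower, which is the background for the counts of this and the later lists. Of 13 measured noncoding hosts outside the 10 (15 listed), 2 rose and 1 fell, with a median change of 0.03. Snhg15 rose from 5.11 ± 0.16 to 6.36 ± 0.16 (SD, n = 3, limma adjusted p = 9.35e-04) and Snhg10 from 6.12 ± 0.08 to 6.77 ± 0.13 (limma adjusted p = 0.0193). Snhg17 fell by 1.13 (SE 0.16, limma adjusted p = 0.00202) on the brightest of its 3 probe sets, while the others gave -0.54 (limma adjusted p = 0.0469) and 0.32 (0.238), and the mean of the 3 did not pass. For Snhg10 the adjusted p reached 0.111, and leaving out continuous replicate 2 or either of withdrawal replicates 1 and 2 ended its call. The count of higher hosts was 4 with median centring and 1 without withdrawal replicate 1 or withdrawal replicate 2. The count of lower hosts was 2 with quantile normalization, without dim probe sets, with trend and robust and on single-symbol probe sets alone.

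Among 29 measured protein-coding hosts (37 listed), 5 rose and 1 fell, with a median of 0.25. Rpl32, a protein of the large ribosomal subunit, rose by 0.99 (SE 0.15, limma adjusted p = 0.00228), and Wdr43, a ribosome assembly factor, by 0.92 (SE 0.15, limma adjusted p = 0.00405). The laminin receptor ribosomal protein Rpsa (0.82), the chaperone Hspa8 (0.68) and the nuclear import receptor Ipo7 (0.61) were the others that rose. The other Hspa8 probe sets gave 0.43, 0.37 and 0.37 and did not pass (limma adjusted p = 0.101, 0.216 and 0.219). The mean of the Hspa8 probe sets did not pass either (0.46, limma adjusted p = 0.0758). A second Rpsa probe set gave 0.59 (limma adjusted p = 0.0464). Rpl32 and Wdr43 kept their calls without any 1 array, whereas Rpsa, Hspa8 and Ipo7 lost theirs in 4, 1 and 5 of the 6 cases. The count of higher genes was 2 without withdrawal replicate 1, and 3 without continuous replicate 2, continuous replicate 3 or withdrawal replicate 2. It was 9 with array weights and 8 with trend and robust, and 2 genes were then called lower. Nop56, a core protein of C/D snoRNPs that itself hosts snoRNAs, was called in both directions: its brightest probe set went from 8.78 ± 0.17 to 7.74 ± 0.26 and another from 6.98 ± 0.09 to 7.86 ± 0.11 (SD, n = 3, limma adjusted p = 0.00473 and 0.00403). A direction for Nop56 is therefore not given by these arrays.

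Of 17 measured proteins that form or assemble snoRNPs (18 listed), 3 rose and 1, the Nop56 probe set above, fell, with a median of 0.40. Nop58, the partner of Nop56 in C/D snoRNPs, rose from 7.24 ± 0.49 to 8.46 ± 0.07 (SD, n = 3, change 1.21, limma adjusted p = 0.00763). Nolc1, a nucleolar chaperone of snoRNPs, rose by 0.86 (SE 0.20) and the assembly factor Nufip1 by 0.65 (SE 0.16). Nop58 passed whichever array was left out, and the count of higher genes was 1 when continuous replicate 2 or either of withdrawal replicates 1 and 2 was left out and 5 with array weights. Of 10 measured nonsense-mediated decay factors (16 listed), 2 rose: Upf2 (0.59, limma adjusted p = 0.0261), a bridge between Upf1 and the exon junction complex, and the kinase Smg1 (0.69, limma adjusted p = 0.0435). Smg8, a subunit of the Smg1 kinase complex, had a change of 0.48 that did not pass (limma adjusted p = 0.111). The list median was 0.37, and no decay factor was called higher when any 1 array other than continuous replicate 1 was left out. With quantile normalization 0 were called higher and 1 was called lower.

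Paraspeckle proteins, the partners of Neat1, gave 2 higher of 14 measured (18 listed), with a median of 0.05. Zfr, a zinc finger RNA-binding protein, rose from 8.95 ± 0.20 to 10.04 ± 0.04 (SD, n = 3, limma adjusted p = 0.00169), and Tardbp, which encodes TDP-43, rose by 0.72 (SE 0.17). Pspc1, a core paraspeckle protein, had all withdrawal arrays above all continuous arrays, and its change of 0.54 (SE 0.16) did not pass (limma adjusted p = 0.0663). Sfpq (0.06) and Nono (-0.01), the other core proteins, were named after their values were seen and did not pass either. Of 18 measured nuclear speckle proteins (19 listed), the compartment of Malat1, 4 rose, with a median of 0.18. They were the mRNA export factors Thoc1 (0.83, limma adjusted p = 0.00778) and Thoc2 (0.74, limma adjusted p = 0.00906) and the splicing factors Srsf4 (0.67) and Srsf10 (0.72). Zfr and Thoc1 passed without any 1 array. The paraspeckle count was 1 without continuous replicate 2 or any 1 withdrawal array, and the speckle count was 1 without withdrawal replicate 1 and 2 without continuous replicate 3 or withdrawal replicate 2.

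In the Dlk1-Dio3 region, where Meg3 lies, 3 of 5 listed genes were measured and 1 fell. Rian, a maternally expressed snoRNA host downstream of Meg3, had 4.94, 4.77 and 4.93 with NTBC and 3.72, 3.67 and 4.42 after withdrawal. These values lie near the lower quartile of the arrays (4.03 to 4.26), and the change was -0.94 (SE 0.21, limma adjusted p = 0.0173). The paternally expressed genes Dlk1 (-0.44) and Dio3 (-0.35) did not pass. The probe set with the symbols Meg3 and Mir770 lies by identifier between those of Dlk1 and Rian. It gave -1.10 (limma adjusted p = 0.00902) and is not counted here, since it carries several symbols. Leaving out continuous replicate 3 or either of withdrawal replicates 1 and 2 ended the Rian call (adjusted p up to 0.09).

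Of 14 measured other long or structural noncoding RNAs (18 listed), 1 rose and 1 fell, with a median of 0.02. Trp53cor1, the p53-induced lincRNA-p21, rose from 5.62 ± 0.24 to 6.42 ± 0.12 (SD, n = 3, limma adjusted p = 0.013), a call lost without withdrawal replicate 2 (0.0635). Rpph1, the RNA subunit of RNase P, fell from 13.12 ± 0.16 to 12.26 ± 0.15 (SD, n = 3, limma adjusted p = 0.00677). Kcnq1ot1, the antisense transcript of an imprinted region, had a change of 0.48 that did not pass (limma adjusted p = 0.162). The count was 2 higher without continuous replicate 1 and 2 lower without continuous replicate 3. The plot of changes by list sets these groups beside the 8 measured transcripts.

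**Figure D3:**
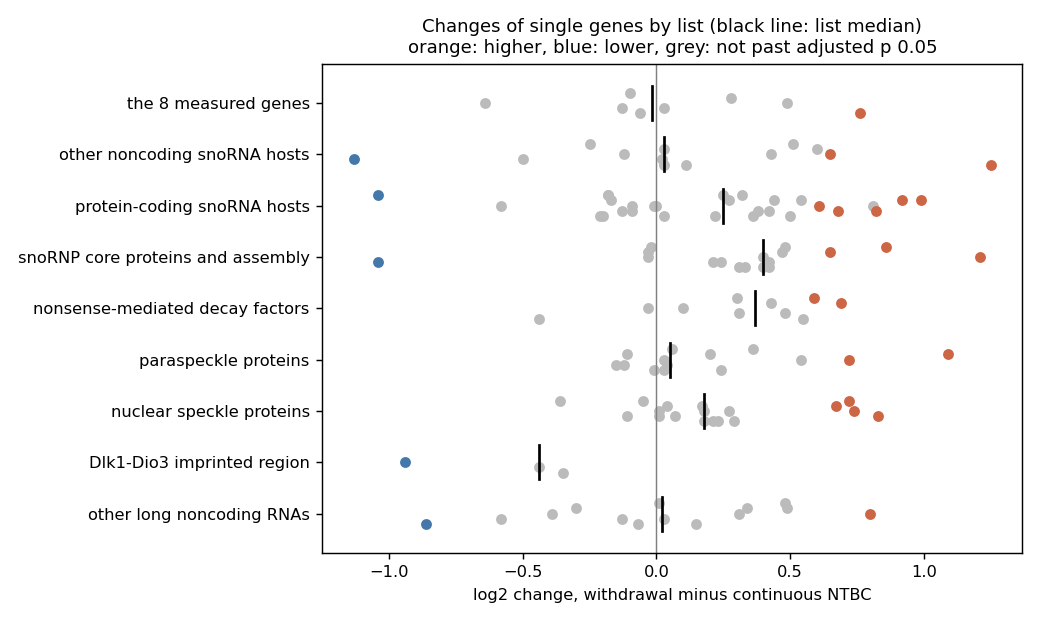
Log2 change, withdrawal minus continuous NTBC (x axis), of each measured gene in 9 groups (y axis), orange where called higher, blue where called lower and grey otherwise, with the median of each group as a black line. Medians run from -0.44 in the Dlk1-Dio3 region to 0.40 among snoRNP proteins, and the 8 transcripts have a median of -0.02 with Snhg3 at 0.76.

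The arrays carried strong liver signal, with Alb at 14.17 ± 0.06 and 14.12 ± 0.01 (SD, n = 3). Markers of sinusoidal endothelial cells moved with the groups: 2 of 10 rose (Clec4g by 0.81, and Lyve1 by 1.07 with a call that 4 of the 6 left-out arrays ended), and the summed intensity of the 10 ran from 1914 to 2325 with NTBC and from 2830 to 2869 after withdrawal. Stab1, the marker with the third smallest p of this list, gave 0.44 (limma adjusted p = 0.139). Of 9 measured hepatocyte markers 1 fell (Cps1, by 1.08), 7 had a change below 0 and 3 were lower at an unadjusted p under 0.05. Of all 34472 probe sets, 20870 had a change below 0. At an unadjusted limma p under 0.05, 3851 of them were lower and 4267 higher. The summed intensity of these hepatocyte markers also moved with the groups, from 86140 to 92120 with NTBC and from 75560 to 83350 after withdrawal. Such sums of linear intensity are weighted to the brightest markers. Changes of single hepatocyte markers ran from -1.08 to 0.13, with a median of -0.18. Those of the 10 endothelial markers ran from 0.02 to 1.07, with a median of 0.34. No marker of stellate cells and fibroblasts (11 measured), of macrophages (10), of cholangiocytes (6) or of lymphocytes (8) was called by limma (3, 1, 1 and 0 higher and 0, 0, 0 and 1 lower, in this order, at an unadjusted p under 0.05). Of 7 neutrophil markers 1 was called lower, Retnlg, at 3.15 to 4.22 and on each array below that array's own lower quartile. A floor at that quartile replaced all its values, so the floored change of -0.11 is that of the quartiles alone. The Retnlg call was lost with quantile normalization, with median centring and without any 1 array other than continuous replicate 1. The part of all these markers in the values of Snhg3, the snoRNAs and the other lists was not tested.

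**Figure D4:**
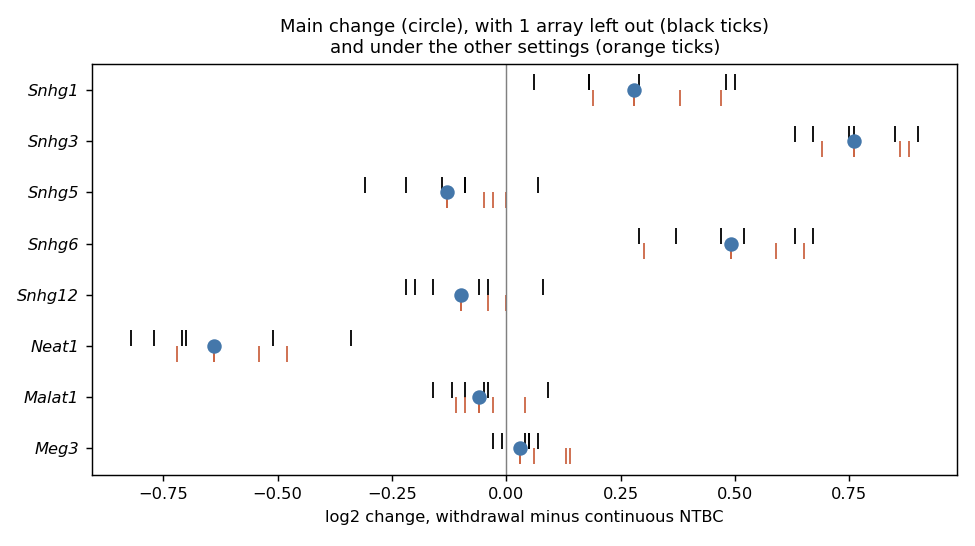
Log2 change, withdrawal minus continuous NTBC (x axis), of each measured transcript as reported (circle), with 1 array left out (black ticks) and under the other settings (orange ticks). Snhg3 stayed between 0.63 and 0.90 and Neat1 between -0.82 and -0.34 with 1 array left out, whereas Snhg5, Snhg12, Malat1 and Meg3 have ticks on both sides of 0.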

How the data were processed

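Liver RNA (100 ng per array, per the labels' protocols) was measured on 6 Affymetrix whole-transcript arrays, 3 per group. The deposited table gives a normalized, linear intensity for each probe set on each array. Transcriptome Analysis Console was used by the authors, per the submitters' processing notes, and its version, background correction and normalization are not given in the sources used here. The deposited intensities were log2-transformed and not normalized again, and no detection flags were given. Of the probe sets 23521 have 1 symbol, 1814 have several and 9137 have none here. Of the genes listed here, 194 were measured, all matched RefSeq (GRCm38.p6) by gene ID and none had another symbol. No genome build is given for the arrays.

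The fit used limma 3.58.1 in R 4.3.3 (lmFit and eBayes, 4 residual and 10.2 total degrees of freedom, no filter), two-sided, and was checked on simulated data. Exact permutation tests over the arrays were run in Python 3.11.15. The members and lists were chosen with earlier results of these data known. Each measured member was named, as were all measured snoRNAs of the hosts, the genes called in a list where at most 5 were in 1 direction and the 3 genes of a list with the smallest p-values, except in marker lists other than the endothelial one, where only called genes were. Replicates are called biological without naming animals, so p-values cover only the spread between these arrays, and 3 arrays per group limit the precision. Alternatives were other scalings, filters, weights, a replicate block, priors, probe set means, a floor at the lower quartile and each array left out.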

Additional observations from a re-analysis of the deposited data

How the results depend on the processing

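The count of probe sets past the threshold was 3241, 5588 with array weights and 1454 to 4210 with 1 array left out. The count of the 8 transcripts called higher was 1, 2 with array weights, where Snhg6 passed (0.65, limma adjusted p = 0.0462), and 0 to 1 with 1 array left out. None was called lower under any setting run. With 1 array left out the change of Snhg3 ran from 0.63 to 0.90, that of Snhg6 from 0.29 to 0.67, of Snhg1 from 0.06 to 0.50, of Neat1 from -0.82 to -0.34, of Snhg5 from -0.31 to 0.07, of Snhg12 from -0.22 to 0.08, of Malat1 from -0.16 to 0.09, of Meg3 from -0.03 to 0.07, of Snora44 from -0.91 to -0.49, of Snord47 from -0.56 to -0.07 and of Snord99 from -0.03 to 0.23. Malat1 was at 0.04 with median centring. Over all probe sets, the median change was -0.08 as deposited and 0.02 with median centring, and higher calls made up 66.0% and 77.2% of the total (58.3% with quantile normalization).

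With the replicate number as a block the count was 3298, and Snhg3 kept its call (0.76, limma adjusted p = 0.0344), as did Snora73a, Snora73b and Snora61. Snord22 (0.039), Snora16a (0.0427) and Snora44 (0.0342) then passed, which made 6 lower snoRNAs of the hosts in place of 3, and Ipo7, Smg1 and Retnlg did not. Same-numbered arrays had correlations of deviations of 0.16, -0.125 and 0.217, so the numbers were not taken as pairs, and not every array correlated best with its own number. The settings for single list genes were chosen after seeing the data.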

Other observations

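Probe sets with several symbols name no gene here, but 4 of them list a member and are given as values. The probe set with the symbols Meg3 and Mir770 had 6.21, 6.66 and 6.47 on the continuous arrays and 5.09, 5.15 and 5.79 on the withdrawal arrays, a change of -1.10 (SE 0.21, limma adjusted p = 0.00902), whereas the single-symbol Meg3 probe set gave 0.03. The probe set with Meg3, Mir1906-1 and Mir1906-2 gave -0.24 (limma adjusted p = 0.501). The probe set with Gas5 and Mir5117 had 6.72, 6.50 and 6.31 against 6.50, 6.60 and 6.18, a change of -0.08 (95% interval -0.47 to 0.30). The probe set with Snhg8 and Snora24 had 7.88, 7.72 and 7.45 against 7.44, 7.43 and 7.21, a change of -0.32 (limma adjusted p = 0.265). How much of each signal comes from which of its genes was not tested.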
